A study of Mus musculus with 9 samples.

Results

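Transcripts of 33 genes of glycolysis and lactate transport were measured in the anterior lens capsule of mice, a basement membrane that covers the front of the lens and carries its sheet of epithelial cells. The genes were taken by symbol from a list of glucose transporters, glycolytic enzymes, regulators of the pathway, monocarboxylate transporters and the pyruvate dehydrogenase step. All 33 symbols were found among the 17527 symbols of the deposited table, and all 33 were among the 13711 genes that passed the filter on low counts and were tested.

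Glycolysis splits glucose into pyruvate in the cytosol and yields ATP without oxygen, and lactate dehydrogenase turns pyruvate into lactate, which leaves or enters the cell with a proton through monocarboxylate transporters. The lens has no blood vessels and its fibre cells lose their mitochondria as they mature, so it draws most of its energy from glucose taken up from the aqueous humour. Many steps are run by several isoenzymes, which are products of different genes with different tissue distributions. The retina is another strongly glycolytic tissue of the eye, where photoreceptors make lactate even in the presence of oxygen.

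The study holds 3 libraries of young control mice, 3 of aged control mice (also called old in the series' text) and 3 of aged mice treated with EGCG, which is epigallocatechin gallate, the main polyphenol of green tea. All were labelled as anterior lens capsule of Mus musculus, and the series title places the work in age-related cataract and the RASSF2/AKT pathway. Strain, sex, age, dose, route, treatment time and any vehicle of the controls were not given in the sources used here. They do not state whether libraries with the same label are different animals, pooled animals or repeat preparations, so a p-value here covers the spread among these libraries alone, and that spread may be technical.

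Library totals lay between 13184169 and 16528179 counts, and 3 counts correspond to between 0.183 and 0.232 CPM (a count relative to its library's total, here scaled with the TMM factors of edgeR). The tissue label was checked against marker genes. Lens fibre genes without crystallins summed to 40772, 45708 and 40048 CPM in the young control, aged control and EGCG libraries, and lens epithelium genes to 8496, 11032 and 9875 CPM. Markers of retinal photoreceptors and inner retina were present as well. All 40 had lower levels in the aged control group than in the young one, and 38 of 40 were higher and 0 lower in aged EGCG than in aged control libraries (edgeR). Their summed level was 29487 to 29681 CPM in young control, 2419 to 2423 CPM in aged control and 13075 to 13283 CPM in aged EGCG libraries, which put aged control at 8.19% and aged EGCG at 44.6% of young control. None of the 40 markers was at 0 in all libraries of a group. All 5 red blood cell markers tested were lower with age, with sums of 205 to 215 CPM in young control, 6.33 to 7.98 CPM in aged control and 20.1 to 25.5 CPM in EGCG libraries. In bulk samples, fewer cells of a type and less RNA per cell cannot be told apart, and the part of RNA from these other cells in the results below was not tested.

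In aged against young control libraries, 28 of the 33 genes were called changed (84.8%), where 69.2% of all genes tested were called (edgeR quasi-likelihood test, Benjamini-Hochberg adjusted p under 0.05, two-sided). Of these, 11 were higher (35.4% of all genes were called higher) and 17 were lower (33.8% of all genes were called lower). Changes of at least 2-fold comprised 3 genes that rose (7.42% of all genes) and 9 that fell (19.1% of all genes). In 10 genes all aged control libraries lay above all young control libraries, and in 17 all lay below, where 36.9% and 35.3% of all genes did so (72.1% in either direction). The median log2 fold change of the 33 genes was -0.31, with a range from -3.81 to 1.54, beside a median of 0.02 over all genes tested. Genes with at least 10 CPM on average, a class looked at after the data were seen, were called in 77.6% of all cases, and 27 of the 31 members of that class were called (87.1%).

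In aged EGCG against aged control libraries, 19 of the 33 genes were called (57.6%), where 24.1% of all genes tested were called. Of these, 14 were higher (13.8% of all genes) and 5 were lower (10.3% of all genes). Among the 14 that rose, 4 did so by at least 2-fold (7.41% of all genes), while 0 of the 5 that fell did (0.831% of all genes). The aged EGCG libraries lay wholly above the aged control libraries in 14 genes and wholly below in 7, where 17.8% and 15.7% of all genes did so (33.5% in either direction). The median log2 fold change was 0.13, with a range from -0.85 to 2.14, beside -0.004 over all genes. Among genes with at least 10 CPM, 26.8% of all genes and 19 of 31 members were called. Both comparisons use the aged control libraries, so a high or low aged control value enters both with opposite sign.

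**Figure D1:**
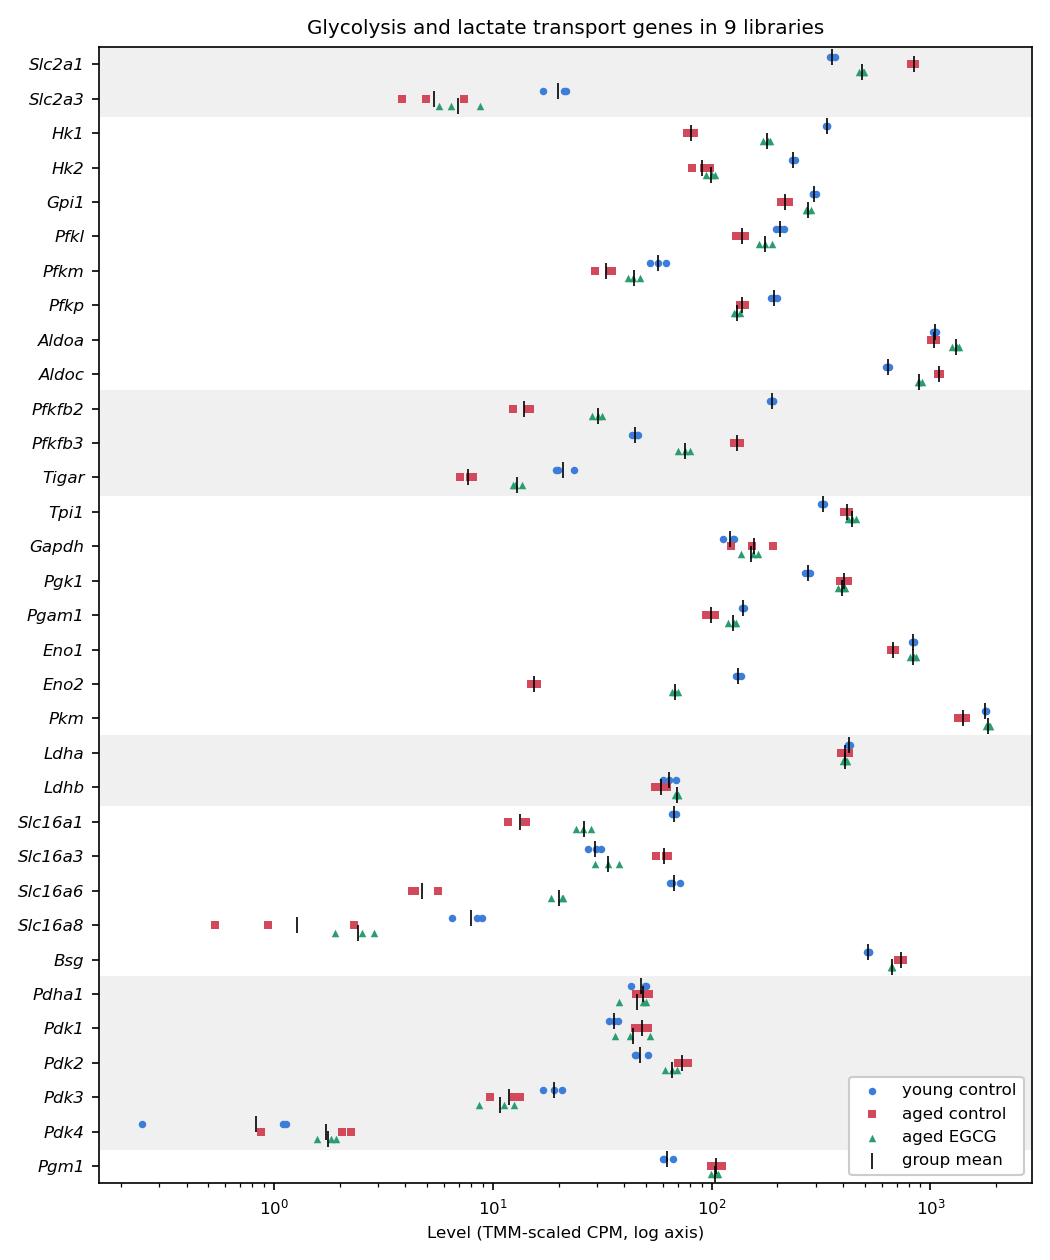
TMM-scaled CPM of each of the 33 genes on a log axis, 1 point per library, in the young control, aged control and EGCG libraries, grouped by role. The 3 libraries of a group lie close together for most genes; aged control points lie far to the left of the others for Pfkfb2, Slc16a6 and Eno2, and to the right for Slc2a1, Pfkfb3 and Slc16a3.

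**Figure D2:**
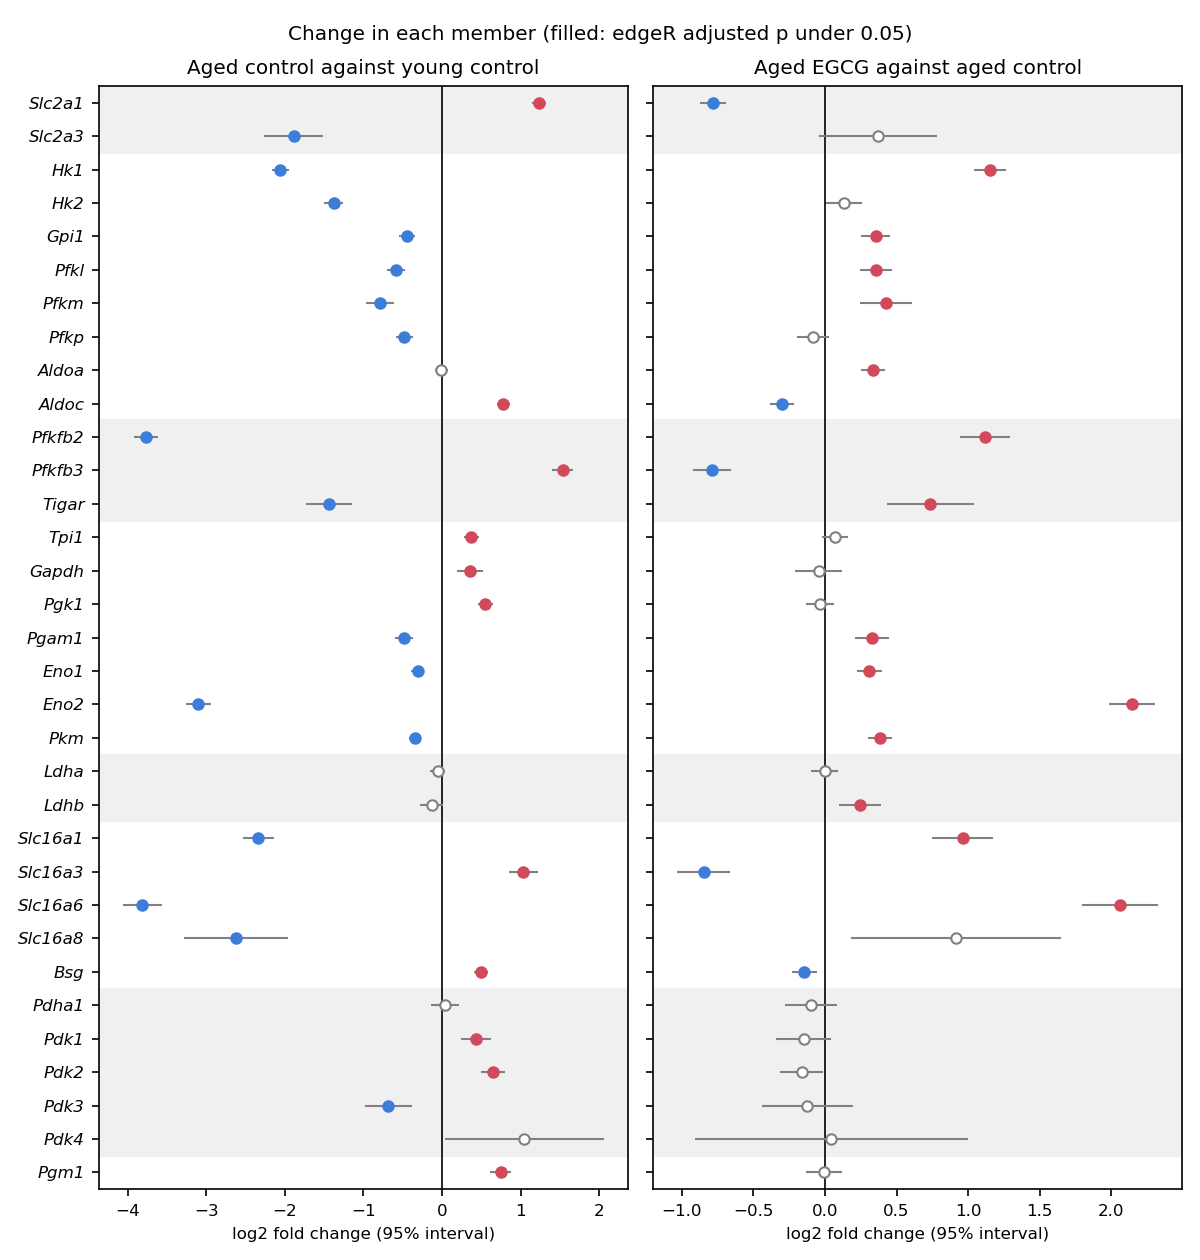
Log2 fold changes with their 95% intervals from edgeR, for aged control against young control (left) and aged EGCG against aged control (right), with filled points where the adjusted p was under 0.05. The panels share the aged control libraries and have different scales; the values run from -3.81 to 1.54 on the left and from -0.85 to 2.14 on the right.

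The scaling of the libraries moved the split between higher and lower calls. TMM factors were 0.881 to 0.926 in aged control, 0.981 to 0.989 in EGCG and 1.118 to 1.131 in young control libraries. An alternative fit scaled by library size alone, another to the summed counts of lens fibre genes, and a further one removed the trend of each library on gene length. Library size scaling put the median log2 fold change of all genes with age at -0.30, and lens fibre scaling put it at -0.14. With EGCG against aged control, these medians were 0.12 and 0.19. The 33 genes then split into 8 higher and 21 lower with age by library size, 11 and 20 by lens fibre genes, and 9 and 18 with the length trend removed, beside 11 and 17 with TMM. With EGCG against aged control the splits were 18 and 4, 21 and 4, and 15 and 5, beside 14 and 5. Slc2a1, Pfkfb3, Slc16a3 and Aldoc were called higher with age and lower with EGCG than in aged control under all 4 of these scalings, and Hk1, Pfkfb2, Eno2, Slc16a1, Slc16a6 and Tigar were called lower with age and higher with EGCG.

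**Figure D3:**
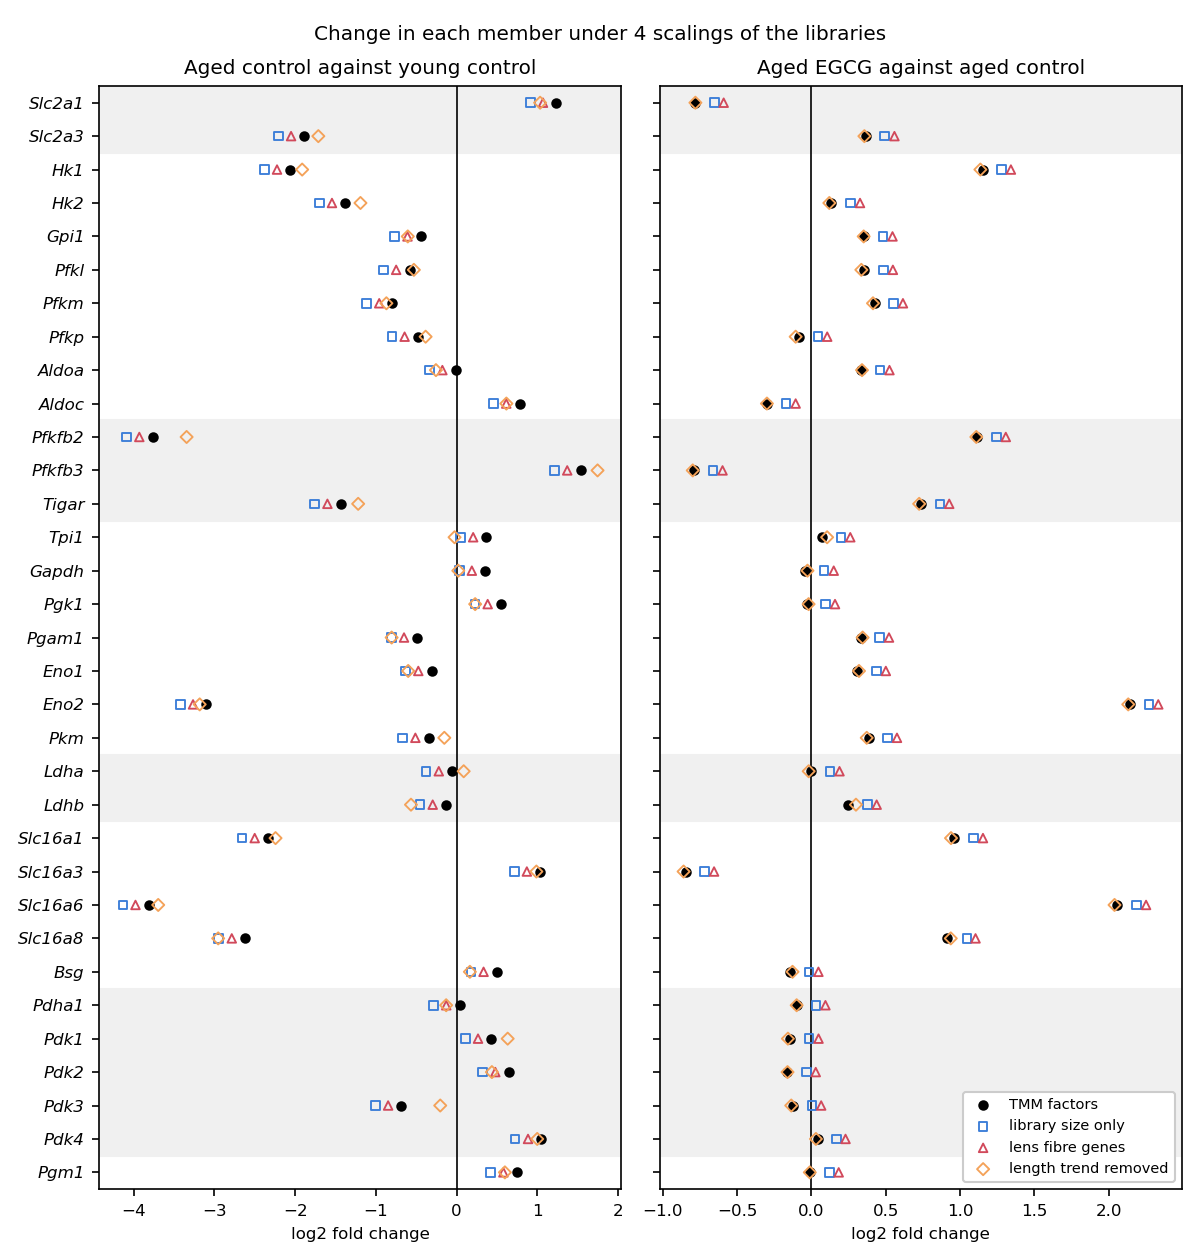
Log2 fold change of each of the 33 genes under 4 scalings (TMM, library size only, lens fibre genes and gene length trend removed), for aged control against young control (left) and aged EGCG against aged control (right). The points of Tpi1, Gapdh, Ldha and Pdha1 lie on both sides of 0 in at least 1 panel, while those of Slc2a1, Pfkfb3 and Slc16a3 stay on 1 side in each.

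Of the glucose transporters, Slc2a1 rose with age and fell with EGCG, and Slc2a3 fell with age. Slc2a1 (GLUT1, the widely expressed basal glucose transporter, chr4:119108711-119137983, plus strand, GRCm38 with GENCODE M21) had 353, 348 and 365 in the young control, 846, 846 and 818 in the aged control and 474, 490.3 and 496 in the aged EGCG libraries, in TMM-scaled CPM. The 3 groups did not overlap, with aged control highest and young control lowest. The rise with age was 2.35-fold (log2 fold change 1.24, SE 0.0444, edgeR adjusted p = 3.34e-28), and the level with EGCG was 1.72-fold lower than in aged control (log2 fold change -0.78, SE 0.0440, edgeR adjusted p = 7.42e-20). EGCG libraries remained above young control ones (log2 fold change 0.45, edgeR adjusted p = 2.04e-12). Slc2a3 (GLUT3, the high-affinity transporter typical of neurons) had 21.2, 16.9 and 21.6 in the young control, 3.85, 4.99 and 7.43 in the aged control and 5.71, 6.44 and 8.74 in the aged EGCG libraries, in TMM-scaled CPM. All young control libraries lay above all others, while aged control and aged EGCG libraries overlapped. Its fall with age was 3.70-fold (log2 fold change -1.89, SE 0.187, edgeR adjusted p = 2.47e-12), and its difference between EGCG and aged control was not called (log2 fold change 0.37, SE 0.204, edgeR adjusted p = 0.207), though it was called without aged control replicate 3 (log2 fold change 0.65) and under scaling to lens fibre genes (0.56). Slc2a1 is also abundant in vessels of neural tissue. Of 19 endothelial and mural markers 12 were lower and 2 higher with age, and 5 were lower and 1 higher with EGCG than in aged control. Their sum was 549.8 to 573.6 CPM in young control, 894.7 to 947.1 in aged control and 663.2 to 698.9 in aged EGCG libraries, but Acta2, a smooth muscle actin, made up most of it with 292 ± 7.38, 739 ± 22.003 and 524 ± 15.2 CPM (mean ± SD, n = 3, in the same order). Without Acta2 the sum was 258 to 273 CPM, 178 to 190.3 CPM and 155 to 160.2 CPM, so that aged control lay below young control. The endothelial receptor gene Kdr had 60.0 ± 2.97, 8.96 ± 2.12 and 12.8 ± 2.55 CPM and Flt1 had 42.8 ± 2.70, 16.8 ± 1.48 and 13.7 ± 2.53 CPM, and both fell with age (edgeR adjusted p = 7.53e-24 and 2.34e-14). Pdgfrb, a mural marker and the next highest of the list after Acta2, went the other way, with 64.3 ± 6.79, 117 ± 8.03 and 102 ± 3.70 CPM. Of 8 markers of ciliary and corneal epithelium 4 were higher and 3 lower with age, and 0 higher and 5 lower with EGCG, with sums of 287 to 295 CPM in young control, 1171 to 1215 CPM in aged control and 878 to 897 CPM in EGCG libraries, led by Aldh3a1 with 213 ± 4.20, 1067 ± 25.4 and 804 ± 8.75 CPM. The part of either list in the Slc2a1 values was not tested.

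In the steps from glucose to the triose phosphates, 6 of 8 genes fell with age, 1 rose and 1 was not called. Of all genes tested, 33.8% were called lower and 35.4% higher with age. Hk1 (hexokinase 1, which phosphorylates glucose and binds mitochondria, chr10:62268855-62379908, minus strand) had 336, 338 and 335 in the young control, 77.0, 83.5 and 81.4 in the aged control and 181, 185 and 171 in the aged EGCG libraries, in TMM-scaled CPM. Its 3 groups were separate, with aged control lowest and EGCG between aged and young control. It fell 4.17-fold with age (log2 fold change -2.06, SE 0.0539, edgeR adjusted p = 9.80e-34) and was 2.22-fold higher with EGCG than in aged control (log2 fold change 1.15, SE 0.0543, edgeR adjusted p = 7.89e-23). Hk2 (hexokinase 2, the isoenzyme typical of muscle and tumours, and also of photoreceptors) had 236, 232 and 239 in the young control, 92.3, 98.1 and 81.4 in the aged control and 94.3, 101 and 104 in the aged EGCG libraries, in TMM-scaled CPM. Young control libraries lay far above the rest, and aged control and EGCG libraries overlapped. Its fall with age was 2.60-fold (log2 fold change -1.38, SE 0.0599, edgeR adjusted p = 5.43e-25), and with EGCG it was not called (log2 fold change 0.13, SE 0.0618, edgeR adjusted p = 0.114), although it was called without aged control replicate 2 (log2 fold change 0.20) and with library size scaling (0.26). As percent of young control, aged control and EGCG libraries had 24.0% and 53.3% of Hk1 and 38.4% and 42.3% of Hk2. The corresponding values over the 40 retinal markers had medians of 5.55% (range 0.886% to 54.6%) and 43.3% (12.7% to 76.7%). The part of retinal RNA in these values was not tested.

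Gpi1 (glucose-6-phosphate isomerase) had 294 ± 5.52, 216 ± 9.69 and 276 ± 7.44 CPM in young control, aged control and EGCG libraries (mean ± SD, n = 3), a fall of 1.36-fold with age and a 1.28-fold higher level with EGCG (edgeR adjusted p = 5.81e-11 and 1.22e-07). The 3 phosphofructokinase genes, which encode the committed step of glycolysis, all fell with age. Pfkl (liver type) fell 1.498-fold, Pfkm (muscle type) 1.74-fold and Pfkp (platelet type) 1.39-fold, with edgeR adjusted p between 8.68e-13 and 7.13e-11. With EGCG, Pfkl and Pfkm were higher by 1.28-fold and 1.34-fold (edgeR adjusted p = 1.93e-06 and 2.52e-04). Pfkp had 188, 192 and 199 in the young control, 138, 143 and 135 in the aged control and 129.8, 135 and 127 in the aged EGCG libraries, in TMM-scaled CPM. All EGCG libraries lay below all aged control libraries for Pfkp, yet the difference was not called (log2 fold change -0.084, SE 0.0546, edgeR adjusted p = 0.291) and its sign turned positive under library size scaling (log2 fold change 0.043) and lens fibre scaling (0.11).

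The aldolases cleave fructose bisphosphate. Aldoa (the muscle and ubiquitous form) had 1049.6, 1062 and 1024 in the young control, 1049, 1059 and 1003 in the aged control and 1348, 1320.4 and 1256 in the aged EGCG libraries, in TMM-scaled CPM. The young and aged control libraries overlapped and all EGCG libraries lay above them. Its age difference was not called under TMM scaling (log2 fold change -0.011, 95% interval -0.10 to 0.073, edgeR adjusted p = 0.822) but was a called fall under library size scaling (log2 fold change -0.33), lens fibre scaling (-0.18) and with the trend on gene length removed (-0.26). With EGCG it was 1.26-fold higher than in aged control (log2 fold change 0.33, SE 0.0416, edgeR adjusted p = 7.74e-09). Aldoc (the form typical of brain) had 625, 647 and 638 in the young control, 1086, 1109 and 1085 in the aged control and 912, 885 and 873 in the aged EGCG libraries, in TMM-scaled CPM. Its 3 groups were separate, with aged control highest. Aldoc rose 1.72-fold with age (log2 fold change 0.78, SE 0.0417, edgeR adjusted p = 1.52e-21) and was 1.23-fold lower with EGCG (log2 fold change -0.30, SE 0.0414, edgeR adjusted p = 1.25e-07). Its rise with age was smaller under library size scaling, at 0.46, and its difference with EGCG was -0.11 under lens fibre scaling, both called with unchanged sign.

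Regulators of fructose-2,6-bisphosphate, the metabolite that switches phosphofructokinase on, moved in different directions. Pfkfb2 (the isoenzyme known from heart, chr1:130689182-130729253, minus strand) had 186, 191 and 191 in the young control, 14.9, 12.4 and 14.6 in the aged control and 31.7, 28.5 and 30.4 in the aged EGCG libraries, in TMM-scaled CPM. Young control libraries were the highest and aged control libraries the lowest, with no overlap among the 3 groups. Pfkfb2 fell 13.6-fold with age (log2 fold change -3.77, SE 0.0787, edgeR adjusted p = 8.91e-38) and was 2.17-fold higher with EGCG than in aged control (log2 fold change 1.12, SE 0.0878, edgeR adjusted p = 1.03e-14). It remained 6.27-fold below young control in EGCG libraries, the largest difference of the 33 genes in that comparison (edgeR adjusted p = 1.50e-32).

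Pfkfb3 (the inducible isoenzyme with high kinase activity, chr2:11471433-11554077, minus strand) showed the reverse order. It had 45.5, 45.9 and 43.1 in the young control, 126, 135 and 129 in the aged control and 70.0, 79.9 and 75.8 in the aged EGCG libraries, in TMM-scaled CPM. Aged control libraries were the highest and young control libraries the lowest, again with no overlap. Pfkfb3 rose 2.90-fold with age, the largest rise of the 33 genes (log2 fold change 1.54, SE 0.0667, edgeR adjusted p = 5.43e-25), was 1.73-fold lower with EGCG than in aged control (log2 fold change -0.79, SE 0.0646, edgeR adjusted p = 4.12e-14) and stayed 1.68-fold above young control (edgeR adjusted p = 2.88e-13). Tigar, a phosphatase that degrades fructose-2,6-bisphosphate, had 19.9, 23.4 and 19.5 in the young control, 7.91, 8.15 and 7.12 in the aged control and 12.4, 12.7 and 13.6 in the aged EGCG libraries, in TMM-scaled CPM. Its groups were separate, with aged control lowest. It fell 2.70-fold with age and was 1.67-fold higher with EGCG (edgeR adjusted p = 3.42e-12 and 1.48e-04). As percent of young control, Pfkfb2 had 7.36% and 16.0% and Tigar 36.9% and 61.6% in aged control and EGCG libraries, beside the medians of 5.55% and 43.3% over the retinal markers. Pfkfb3 had 289.9% and 168%.

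Glycolytic genes are known targets of hypoxia-inducible factor, which binds elements with the core ACGTG. Promoter windows of 250 bases before to 50 after the start were available from RefSeq (GRCm38.p6) for 30 of the 33 genes, in 46 windows, and were searched for ACGTG on both strands. The core was found in 22 of the 46 windows (47.8%), beside 24.8% of the 14009 windows of genes tested and 19.6% of all 32851 windows of the table. By gene, 18 of the 30 members (60.0%) had it in at least 1 window, beside 29.0% of the genes tested that have windows and 21.8% of all genes of the table. Median GC content was 61.2% in the 46 windows, 60.7% in those of genes tested and 52.7% in all. A match is a description of the letters and not a bound site. Windows are printed below for the members with the largest called change in each direction that have an entry: Pfkfb3, which rose most with age, Pfkfb2, which fell most with age among them, Slc16a3, which was most below aged control with EGCG, and Eno2, which was most above it. Slc16a6, whose fall with age was larger than that of Pfkfb2, has no entry.
Pfkfb3, chr2:11553880-11554179, minus strand: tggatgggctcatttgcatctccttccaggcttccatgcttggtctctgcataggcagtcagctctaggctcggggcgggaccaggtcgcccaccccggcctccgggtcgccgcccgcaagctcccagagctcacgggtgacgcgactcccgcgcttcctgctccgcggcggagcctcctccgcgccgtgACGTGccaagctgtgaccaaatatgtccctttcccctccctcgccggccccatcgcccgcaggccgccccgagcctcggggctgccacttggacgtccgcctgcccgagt
Pfkfb3, second start, chr2:11502041-11502340, minus strand: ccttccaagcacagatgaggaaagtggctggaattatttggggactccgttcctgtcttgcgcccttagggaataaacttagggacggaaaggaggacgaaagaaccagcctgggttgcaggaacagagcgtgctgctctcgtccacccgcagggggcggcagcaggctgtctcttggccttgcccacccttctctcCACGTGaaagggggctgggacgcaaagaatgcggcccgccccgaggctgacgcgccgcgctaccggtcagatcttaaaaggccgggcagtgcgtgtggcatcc
Pfkfb2, chr1:130715772-130716071, minus strand: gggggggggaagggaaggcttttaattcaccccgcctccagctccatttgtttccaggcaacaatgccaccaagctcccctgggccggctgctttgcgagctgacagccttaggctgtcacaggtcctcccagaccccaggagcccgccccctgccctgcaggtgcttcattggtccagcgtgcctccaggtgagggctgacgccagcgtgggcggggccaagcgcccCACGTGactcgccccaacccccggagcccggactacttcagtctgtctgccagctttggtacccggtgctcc
Pfkfb2, second start, chr1:130715999-130716298, minus strand: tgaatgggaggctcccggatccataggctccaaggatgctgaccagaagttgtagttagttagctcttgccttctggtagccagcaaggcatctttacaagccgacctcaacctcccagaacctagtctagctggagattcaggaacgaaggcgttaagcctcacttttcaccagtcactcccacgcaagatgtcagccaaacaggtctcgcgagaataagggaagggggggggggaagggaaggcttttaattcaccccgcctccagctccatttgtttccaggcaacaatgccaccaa
Pfkfb2, further start, chr1:130714527-130714826, minus strand: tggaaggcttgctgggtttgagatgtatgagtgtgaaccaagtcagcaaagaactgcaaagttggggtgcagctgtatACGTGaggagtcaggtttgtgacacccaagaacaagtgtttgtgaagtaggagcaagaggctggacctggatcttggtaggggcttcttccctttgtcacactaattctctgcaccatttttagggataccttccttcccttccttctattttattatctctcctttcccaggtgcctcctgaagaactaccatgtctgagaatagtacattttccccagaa
Slc16a3, chr11:120948817-120949116, plus strand: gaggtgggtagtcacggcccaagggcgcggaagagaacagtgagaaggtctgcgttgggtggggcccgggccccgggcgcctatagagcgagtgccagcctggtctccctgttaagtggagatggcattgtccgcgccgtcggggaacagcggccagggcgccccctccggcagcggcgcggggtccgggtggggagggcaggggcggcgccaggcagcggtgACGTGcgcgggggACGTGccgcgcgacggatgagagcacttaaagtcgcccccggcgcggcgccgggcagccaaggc
Eno2, chr6:124769624-124769923, minus strand: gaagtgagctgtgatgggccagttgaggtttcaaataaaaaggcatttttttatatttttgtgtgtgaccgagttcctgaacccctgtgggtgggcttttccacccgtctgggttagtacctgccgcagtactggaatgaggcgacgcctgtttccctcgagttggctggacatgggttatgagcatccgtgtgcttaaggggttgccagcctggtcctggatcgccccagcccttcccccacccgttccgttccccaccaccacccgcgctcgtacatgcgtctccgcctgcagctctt
The sequences run 5′ to 3′ along the gene, and capitals mark ACGTG or its reverse complement CACGT. The first Pfkfb3 window holds 1 match, 60 bases before the start. In its second window the capitals form the palindrome CACGTG, also known as an E-box, which holds the core on each strand. The first Pfkfb2 window holds the same palindrome, the second holds 0 matches and overlaps the first, and the further one holds 1 match, 172 bases before the start. The Slc16a3 window holds 2 matches, 27 and 14 bases before the start, and the Eno2 window holds 0. Matches stood in windows of genes that rose and of a gene that fell with age.

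In the steps from triose phosphate to pyruvate, 3 of 7 genes were called higher and 4 lower with age, and 4 were called higher and 0 lower with EGCG. Over all genes tested, the shares called higher and lower were 35.4% and 33.8% with age and 13.8% and 10.3% with EGCG. The largest changes were in Eno2 (neuron-specific enolase, chr6:124760053-124769673, minus strand), which had 137, 129 and 132 in the young control, 14.9, 15.9 and 15.6 in the aged control and 66.2, 68.2 and 70.6 in the aged EGCG libraries, in TMM-scaled CPM. The 3 groups were far apart, with aged control lowest and EGCG between. Eno2 fell 8.57-fold with age (log2 fold change -3.10, SE 0.0768, edgeR adjusted p = 1.01e-34) and was 4.42-fold higher with EGCG than in aged control (log2 fold change 2.14, SE 0.0791, edgeR adjusted p = 5.08e-27), the largest rise of the 33 genes in that comparison. Its level was 11.7% and 51.5% of young control in aged control and EGCG libraries, beside 8.19% and 44.6% for the sum of the retinal markers, whose part in it was not tested. Eno1 (the ubiquitous enolase) had 826, 838 and 841 in the young control, 692, 672 and 658 in the aged control and 803, 845 and 857 in the aged EGCG libraries, in TMM-scaled CPM. All aged control libraries lay below the others, and young control and EGCG libraries overlapped. Eno1 fell 1.24-fold with age (log2 fold change -0.31, SE 0.0426, edgeR adjusted p = 1.51e-08) and was 1.24-fold higher with EGCG (log2 fold change 0.31, SE 0.0427, edgeR adjusted p = 9.36e-08). Its difference between EGCG and young control was not called under TMM scaling (95% interval -0.085 to 0.086 on the log2 scale) but was a called fall under library size scaling (log2 fold change -0.19) and with the length trend removed (-0.28).

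Pkm (pyruvate kinase, the last step of glycolysis) had 1766, 1798 and 1785 in the young control, 1423, 1448 and 1338 in the aged control and 1783, 1849.6 and 1862 in the aged EGCG libraries, in TMM-scaled CPM. Aged control libraries were the lowest, while young control and EGCG libraries overlapped. It fell 1.27-fold with age (log2 fold change -0.35, SE 0.0401, edgeR adjusted p = 2.10e-10) and was 1.31-fold higher with EGCG (log2 fold change 0.38, SE 0.0402, edgeR adjusted p = 7.33e-11). Against young control, the EGCG difference was not called under TMM scaling (log2 fold change 0.039), was a called fall under library size scaling (-0.15) and a called rise with the length trend removed (0.22). The table gives 1 value per gene, so the spliced forms of Pkm were not analysed here. Pgam1 (phosphoglycerate mutase) fell 1.40-fold with age and was 1.26-fold higher with EGCG (edgeR adjusted p = 3.85e-10 and 1.44e-05).

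Pgk1 (phosphoglycerate kinase) had 275 ± 8.15, 403 ± 17.5 and 394 ± 13.9 CPM in young control, aged control and EGCG libraries, a rise of 1.46-fold with age (log2 fold change 0.55, SE 0.0480, edgeR adjusted p = 4.34e-14) that was smaller under library size scaling (log2 fold change 0.23) and still called. Tpi1 (triosephosphate isomerase) had 322 ± 5.80, 416 ± 11.3 and 437 ± 18.4 CPM and was called higher with age (log2 fold change 0.37, SE 0.0466, edgeR adjusted p = 1.72e-09). That call was lost under library size scaling (log2 fold change 0.048) and the sign turned with the length trend removed (-0.025). Gapdh (glyceraldehyde-3-phosphate dehydrogenase) had 113, 125 and 127 in the young control, 123, 191 and 153 in the aged control and 154, 163 and 136 in the aged EGCG libraries, in TMM-scaled CPM. Its aged control libraries spread more widely than its other groups (SD 34.0) and overlapped with young control. It was called higher with age (log2 fold change 0.36, SE 0.0817, edgeR adjusted p = 1.62e-04), but the value was 0.18 without aged control replicate 2, and the call was lost with DESeq2 (log2 fold change 0.31, DESeq2 adjusted p = 0.0845) and under library size scaling (0.037). With EGCG, neither Pgk1, Tpi1 nor Gapdh was called (edgeR adjusted p = 0.68, 0.299 and 0.772), though Tpi1 was called higher under library size scaling (log2 fold change 0.20) and Pgk1 under lens fibre scaling (0.16). Gapdh, Pgk1, Pgam1, Tpi1, Aldoa, Eno1 and Ldha have processed pseudogenes or retrogene copies, and how reads shared with these were counted was not given in the sources used here, so their counts are uncertain to that extent.

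The lactate dehydrogenase genes had small differences under TMM scaling. Ldha (the form that favours lactate production) had 423, 421 and 430.1 in the young control, 424, 413 and 389 in the aged control and 409, 400.0 and 415 in the aged EGCG libraries, in TMM-scaled CPM. The libraries of young and aged control overlapped, as did those of aged control and EGCG. Under TMM scaling the age difference of Ldha was not called (log2 fold change -0.056, 95% interval -0.15 to 0.037, edgeR adjusted p = 0.282), nor was that with EGCG (log2 fold change -0.0023, 95% interval -0.095 to 0.090, edgeR adjusted p = 0.981). These intervals hold no change of more than 0.15 on the log2 scale, but the scaling sets the sign: under library size scaling Ldha was called lower with age (log2 fold change -0.38) and higher with EGCG (0.13), and DESeq2 called it lower with age (-0.10). Ldhb (the form that favours pyruvate) had 60.0, 63.8 and 68.7 in the young control, 62.4, 57.9 and 55.4 in the aged control and 70.4, 68.2 and 70.2 in the aged EGCG libraries, in TMM-scaled CPM. It was called higher with EGCG than in aged control, with no overlap (log2 fold change 0.25, SE 0.0726, edgeR adjusted p = 0.00841). With age it was not called (log2 fold change -0.13, 95% interval -0.28 to 0.015, edgeR adjusted p = 0.104), but it was called lower without aged control replicate 1 (log2 fold change -0.18), without young control replicate 1 (-0.18), with DESeq2 (-0.18) and under library size scaling (-0.45).

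All 4 monocarboxylate transporter genes and basigin were called with age, 2 higher and 3 lower, and 2 were called higher and 2 lower with EGCG. Of all genes tested, 69.2% were called with age and 24.1% with EGCG. Slc16a6 (MCT7, chr11:109450855-109473598, minus strand) had 66.1, 71.4 and 64.8 in the young control, 4.26, 5.66 and 4.41 in the aged control and 20.6, 18.4 and 21.0 in the aged EGCG libraries, in TMM-scaled CPM. The groups were separate, with aged control lowest. It fell 14.0-fold with age, the largest fall of the 33 genes (log2 fold change -3.81, SE 0.121, edgeR adjusted p = 2.56e-30), and was 4.17-fold higher with EGCG than in aged control (log2 fold change 2.06, SE 0.132, edgeR adjusted p = 8.18e-18). Slc16a1 (MCT1, the widespread lactate carrier, chr3:104638668-104658462, plus strand) had 69.0, 65.9 and 67.6 in the young control, 14.0, 14.2 and 11.8 in the aged control and 25.9, 24.1 and 28.2 in the aged EGCG libraries, in TMM-scaled CPM. Its groups were separate in the same order. It fell 5.05-fold with age (log2 fold change -2.33, SE 0.0995, edgeR adjusted p = 2.55e-25) and was 1.95-fold higher with EGCG (log2 fold change 0.96, SE 0.106, edgeR adjusted p = 2.91e-10). As percent of young control, aged control and EGCG libraries had 7.08% and 29.7% of Slc16a6 and 19.8% and 38.6% of Slc16a1, beside medians of 5.55% and 43.3% over the retinal markers, whose part was not tested.

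Slc16a3 (MCT4, the lactate exporter of strongly glycolytic cells, chr11:120948480-120960868, plus strand) went the other way. It had 31.4, 27.3 and 29.7 in the young control, 56.0, 62.3 and 63.0 in the aged control and 29.4, 33.7 and 37.7 in the aged EGCG libraries, in TMM-scaled CPM. All aged control libraries lay above all others, and EGCG and young control libraries overlapped. Slc16a3 rose 2.05-fold with age (log2 fold change 1.04, SE 0.0912, edgeR adjusted p = 6.08e-14) and was 1.80-fold lower with EGCG, the largest fall of the 33 genes in that comparison (log2 fold change -0.85, SE 0.0913, edgeR adjusted p = 1.76e-10). Between EGCG and young control it was not called (log2 fold change 0.19, 95% interval -0.0017 to 0.38, edgeR adjusted p = 0.0776), although it was called higher without aged EGCG replicate 1 (log2 fold change 0.28), and its sign turned under library size scaling (-0.0048). Bsg (basigin, the chaperone that carries MCT1 and MCT4 to the membrane) had 512, 526 and 524 in the young control, 747, 746 and 714 in the aged control and 668, 661 and 668 in the aged EGCG libraries, in TMM-scaled CPM. The groups were separate, with aged control highest. It rose 1.41-fold with age (log2 fold change 0.50, SE 0.0428, edgeR adjusted p = 2.65e-14). The 1.10-fold lower level with EGCG (log2 fold change -0.14, SE 0.0427, edgeR adjusted p = 0.00946) was not called under library size scaling (log2 fold change -0.016) and turned positive under lens fibre scaling (0.047).

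Slc16a8 (MCT3, known from the retinal pigment epithelium) had low counts, with 6.49, 8.47 and 8.98 in the young control, 2.34, 0.943 and 0.542 in the aged control and 1.90, 2.88 and 2.53 in the aged EGCG libraries, in TMM-scaled CPM. Young control libraries lay above all others, and aged control replicate 1 overlapped with EGCG. It fell 6.15-fold with age (log2 fold change -2.62, SE 0.330, edgeR adjusted p = 1.76e-09), and the fall was larger without aged control replicate 1 (log2 fold change -3.39). With EGCG it was not called (log2 fold change 0.91, SE 0.365, edgeR adjusted p = 0.0616), but it was called higher without aged control replicate 1 (log2 fold change 1.69), without aged EGCG replicate 1 (1.06) and under library size scaling (1.05). Of 12 tested markers of the retinal pigment epithelium, 7 were lower and 3 higher with age, and 4 were higher and 3 lower with EGCG than in aged control. Sums over the list were 353 to 372 CPM in young control, 293 to 309 CPM in aged control and 231 to 234 CPM in EGCG libraries. They were led by Dct, a pigment gene that melanocytes also express, with 117 ± 3.38, 169 ± 5.62 and 101 ± 5.18 CPM, and without it they were 239 to 252 CPM, 127 to 134 CPM and 126 to 136 CPM. The opsin-like gene Rgr had 53.0 ± 3.72, 5.81 ± 1.16 and 17.2 ± 3.33 CPM and Ttr, which encodes transthyretin, had 57.4 ± 2.80, 9.65 ± 0.900 and 22.7 ± 2.97 CPM. Both were lower with age and higher with EGCG than in aged control, as Lrat was (log2 fold changes -3.60 and 1.44). Tyrp1, the next highest of the list after Dct, went the other way, with 27.4 ± 1.38, 43.9 ± 2.97 and 28.1 ± 3.53 CPM. The part of these cells in the Slc16a8 values was not tested.

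At the gate between pyruvate and the mitochondrion, no gene of 5 was called with EGCG, where 24.1% of all genes tested were called. Pdha1 (the catalytic subunit of pyruvate dehydrogenase) had 49.9, 42.7 and 49.6 in the young control, 45.3, 51.8 and 48.9 in the aged control and 37.8, 49.96 and 48.8 in the aged EGCG libraries, in TMM-scaled CPM. Its groups overlapped and no comparison was called under TMM scaling (edgeR adjusted p = 0.722, 0.497 and 0.583 for age, EGCG against aged control and EGCG against young control), while library size scaling gave a called fall with age (log2 fold change -0.28). Among the kinases that switch the complex off, Pdk2 rose 1.56-fold with age (log2 fold change 0.64, SE 0.0750, edgeR adjusted p = 2.22e-10). Pdk1 was called higher by 1.35-fold (log2 fold change 0.43, SE 0.0955, edgeR adjusted p = 1.01e-04), a call lost under library size scaling (log2 fold change 0.11). Pdk3 fell 1.61-fold (log2 fold change -0.68, SE 0.149, edgeR adjusted p = 7.51e-05), a call lost with the length trend removed (log2 fold change -0.20). Pdk1 had 34.2, 37.6 and 35.7 in the young control, 48.5, 51.3 and 44.9 in the aged control and 42.5, 36.4 and 52.3 in the aged EGCG libraries, in TMM-scaled CPM, and without aged EGCG replicate 3, its highest library, it was called lower with EGCG (log2 fold change -0.29). Pdk4 had between 0.249 and 2.25 CPM in the 9 libraries, from 4 counts in young control replicate 2 and from 13 to 30 counts in the others, and its age difference was not called (log2 fold change 1.05, SE 0.503, edgeR adjusted p = 0.0618) but was called higher without aged control replicate 2 (log2 fold change 1.37). Pgm1 (phosphoglucomutase, which links glycogen and glycolysis) had 62.3 ± 3.66, 104 ± 6.36 and 104 ± 3.91 CPM in young control, aged control and EGCG libraries. It rose 1.67-fold with age (log2 fold change 0.74, SE 0.0652, edgeR adjusted p = 5.24e-14) and was not called with EGCG (log2 fold change -0.0066, SE 0.0637, edgeR adjusted p = 0.963).

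The share of each isoenzyme in its family was computed per library from deposited FPKM (fragments in relation to gene length and library total), which takes gene length into account and does not depend on the scaling of the library. Pfkfb2 made up 73.4% ± 0.861 in the young control, 6.54% ± 0.780 in the aged control and 20.8% ± 1.95 in the aged EGCG libraries of the summed FPKM of Pfkfb2 and Pfkfb3 (mean ± SD, n = 3), so the family went from mostly Pfkfb2 to mostly Pfkfb3. Slc16a3 made up 20.2% ± 1.49 in the young control, 78.8% ± 3.66 in the aged control and 46.0% ± 2.36 in the aged EGCG libraries of the summed FPKM of the 4 transporters, and Slc16a6 33.1% ± 1.66 in the young control, 4.44% ± 0.576 in the aged control and 19.7% ± 1.74 in the aged EGCG libraries. The aged control libraries thus had Slc16a3 as the main transporter of the 4, while in young control libraries Slc16a1, with 36.1% ± 0.964, was ahead.

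Smaller shifts were seen in other families. Hk1 made up 61.3% ± 0.496 in the young control, 49.8% ± 2.48 in the aged control and 66.7% ± 1.77 in the aged EGCG libraries of hexokinase FPKM, and Aldoa 67.1% ± 0.507 in the young control, 54.0% ± 0.569 in the aged control and 64.6% ± 0.436 in the aged EGCG libraries of aldolase FPKM. Eno2 made up 8.87% ± 0.313 in the young control, 1.39% ± 0.0721 in the aged control and 4.77% ± 0.0525 in the aged EGCG libraries of enolase FPKM. For Ldha the shares were 61.8% ± 1.40 in the young control, 63.0% ± 0.570 in the aged control and 58.9% ± 0.202 in the aged EGCG libraries, and young and aged control libraries overlapped. The two-sided exact permutation test over 3 against 3 libraries cannot give a p below 0.1. Of 51 such tests 40 reached that smallest value, with an adjusted p of 0.1275, so no shift could pass a threshold of 0.05 by this test. The lengths implied by the FPKM values differ from the summed exon lengths of GENCODE M21 by factors from 0.334 (Pfkp) to 4.49 (Pdk3), so the shares depend on the authors' gene models.

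**Figure D4:**
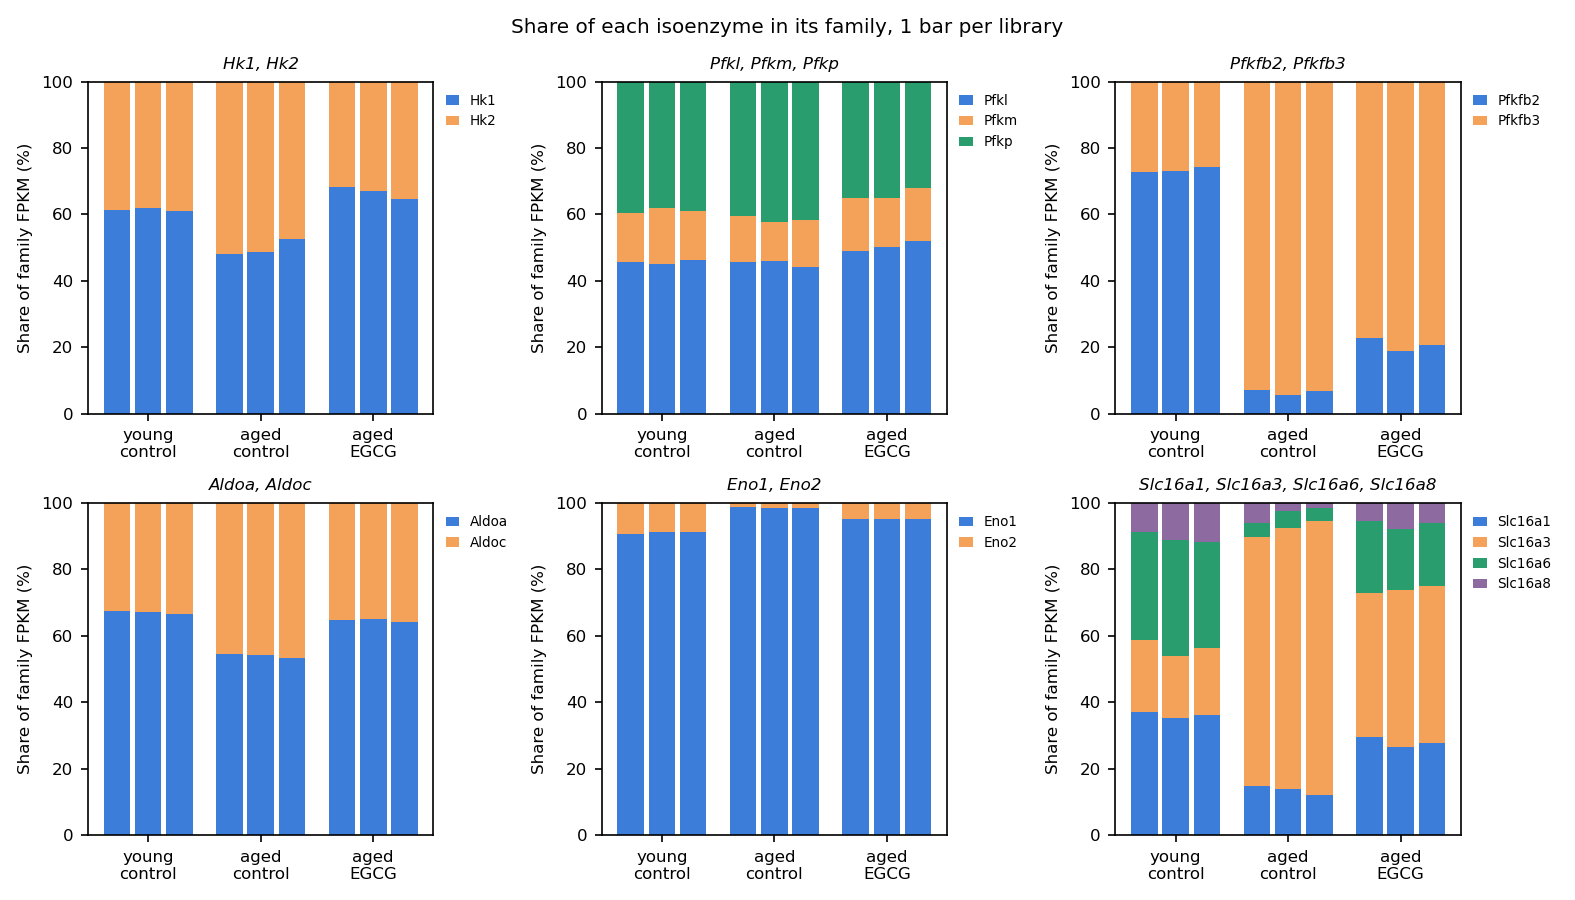
Share of each isoenzyme in the summed FPKM of its family, in percent, 1 stacked bar per library, for 6 families. The Pfkfb2 part shrinks from 73.4% in young control to 6.54% in aged control and is 20.8% in aged EGCG libraries, and the Slc16a3 part is largest in aged control libraries at 78.8%.

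Per length, the most abundant of the 33 transcripts in young control libraries was Aldoa, with 508, 403 and 556 FPKM in young control, aged control and EGCG libraries (group means). Eno1 followed with 469, 303 and 410.2 FPKM, then Bsg with 335, 378 and 374 and Pkm with 328, 207 and 295 FPKM. In aged control libraries the order was Aldoa, Bsg, Aldoc (343 FPKM), Eno1, Slc2a1 (285 FPKM), Tpi1 (255 FPKM) and Pkm. Pdk4 was the lowest, with 0.271, 0.452 and 0.506 FPKM. The summed TMM-scaled CPM of the 33 genes was 8636, 8557 and 9055 in young control, aged control and EGCG libraries. As a part of all counts, the sum was 0.966% to 0.981% in young control, 0.760% to 0.784% in aged control and 0.880% to 0.900% in EGCG libraries. By this measure, which uses no TMM factors, the groups did not overlap and aged control was lowest.

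In aged EGCG against young control libraries, 25 of the 33 genes were called (75.8%), where 63.6% of all genes tested were called. Of these, 11 were higher (32.3% of all genes) and 14 lower (31.4% of all genes), and 0 of the higher (4.89% of all genes) and 6 of the lower genes (14.5% of all genes) changed by at least 2-fold. Library size scaling gave 9 higher and 19 lower members, lens fibre scaling 11 and 13, and removal of the length trend 9 and 18. The 6 were Pfkfb2, Slc16a6, Slc16a8, Slc2a3, Slc16a1 and Hk2, with log2 fold changes of -2.65, -1.75, -1.71, -1.52, -1.37 and -1.24. The highest called genes were Pfkfb3 (0.75), Pgm1 (0.74), Pgk1 (0.52), Aldoc (0.48) and Pdk2 (0.48). The 8 genes not called were Gpi1, Eno1, Pkm, Ldha, Ldhb, Slc16a3, Pdha1 and Pdk4. The median log2 fold change was -0.06, beside -0.02 over all genes. Calls of 2 further members rest on few libraries: Pdk1 (log2 fold change 0.29) was not called without aged EGCG replicate 3 (0.14), and Pgam1 (-0.15) was not called without aged EGCG replicate 1 (-0.12) or without young control replicate 3 (-0.15). Gapdh (log2 fold change 0.31) was not called with DESeq2 (0.26) and its sign turned with the length trend removed (-0.0056), which also ended the calls of Tpi1 (0.080) and Bsg (0.038). Pdk4 (log2 fold change 1.09, edgeR adjusted p = 0.0551) was called higher with a replicate block (1.22) and without aged control replicate 2, which enters only through the shared spread (edgeR adjusted p = 0.0454). This comparison shares the EGCG libraries with the one above and the young control libraries with the age comparison.

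Lists of neighbouring pathways were looked at in the same fit. Beside the counts of every list below, 35.4% of all genes tested were called higher and 33.8% lower with age. With EGCG against aged control, these shares were 13.8% and 10.3%. Values of the lists are given under TMM scaling only. Lens fibre scaling put the median log2 fold change of all genes with EGCG against aged control at 0.19, beside -0.004 with TMM, so small falls with EGCG depend on the scaling. The pentose phosphate pathway branches off glycolysis to make NADPH, and 8 of its 11 tested genes were higher and 1 lower with age, with a median log2 fold change of 0.37. Tkt (transketolase, an abundant lens enzyme) had 572 ± 10.7, 1239 ± 18.1 and 1029 ± 30.0 CPM in young control, aged control and EGCG libraries. It rose 2.17-fold with age (log2 fold change 1.12, SE 0.0420, edgeR adjusted p = 2.06e-27) and was the 1 gene of the list called with EGCG, where it was 1.20-fold lower (log2 fold change -0.27, SE 0.0414, edgeR adjusted p = 1.07e-06). Pgls and Prps2 of the same list rose 2.26-fold and 2.41-fold with age (edgeR adjusted p = 2.60e-16 and 1.70e-13). Of 10 genes of mitochondrial pyruvate import and the pyruvate dehydrogenase complex, 5 were higher and 3 lower with age, and 0 were called with EGCG. Pdhx, which anchors a subunit of the complex, rose 2.15-fold with age, Mpc2, a subunit of the mitochondrial pyruvate carrier, rose 1.45-fold, and Pdp2, a phosphatase that activates the complex, fell 2.40-fold (edgeR adjusted p = 5.47e-17, 2.98e-06 and 9.37e-08).

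Of 13 other glycolytic isoenzymes and glucose transporters tested, 2 were higher and 7 lower with age, and 1 was higher and 2 lower with EGCG. Pgam2 (the muscle form of phosphoglycerate mutase) had 32.3 ± 1.41, 6.34 ± 0.574 and 2.90 ± 0.361 CPM in young control, aged control and EGCG libraries and fell both with age and with EGCG against aged control (log2 fold changes -2.35 and -1.12, edgeR adjusted p = 2.67e-19 and 4.78e-06). Eno3 (muscle enolase) had 67.1 ± 1.64, 109 ± 6.78 and 95.2 ± 1.34 CPM and rose 1.63-fold with age. Of 10 other transporters of monocarboxylates and their chaperone tested, 2 were higher and 3 lower with age, and 2 were higher and 2 lower with EGCG. Emb (embigin, a chaperone related to basigin) had 110.4 ± 8.01, 223 ± 7.61 and 197 ± 5.81 CPM, rose 2.02-fold with age (log2 fold change 1.01, SE 0.0556, edgeR adjusted p = 4.33e-21) and was 1.13-fold lower with EGCG (log2 fold change -0.18, SE 0.0543, edgeR adjusted p = 0.0131). Slc5a8 and Slc16a11, both with low levels, fell with age (edgeR adjusted p = 9.30e-10 and 1.81e-06). Slc5a8 had means of 2.94, 0.0229 and 0.910 CPM and was called higher with EGCG (edgeR adjusted p = 6.91e-05).

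Of 21 glycogen genes, 9 were higher and 6 lower with age, and 2 higher and 4 lower with EGCG. Gyg (glycogenin, the primer of glycogen) rose 2.34-fold with age, and Ppp1r3c (a subunit that targets phosphatase to glycogen) was 2.01-fold lower with EGCG (edgeR adjusted p = 4.00e-16 and 1.48e-04). Pgm2l1 of the same list fell 3.29-fold with age (edgeR adjusted p = 1.38e-17). Of 3 gluconeogenesis genes tested, 1 was called higher with age, G6pc3, by 1.58-fold (edgeR adjusted p = 2.35e-08), and 0 were called with EGCG. Of 23 transcriptional and energy regulators of glycolysis, 11 were higher and 8 lower with age, and 2 higher and 5 lower with EGCG. Egln3 (a prolyl hydroxylase that marks hypoxia-inducible factor for destruction and is itself induced by it) had 9.27, 8.41 and 9.77 in the young control, 62.3, 52.2 and 55.7 in the aged control and 31.8, 28.6 and 29.3 in the aged EGCG libraries, in TMM-scaled CPM. Its groups were separate, with aged control highest. It rose 6.20-fold with age (log2 fold change 2.63, SE 0.108, edgeR adjusted p = 6.49e-26) and was 1.90-fold lower with EGCG (log2 fold change -0.92, SE 0.0964, edgeR adjusted p = 7.12e-11). Egln1, its relative, had 94.3 ± 2.38, 207 ± 6.72 and 189.6 ± 4.65 CPM and rose 2.19-fold with age (edgeR adjusted p = 1.86e-23). Txnip (an inhibitor of glucose uptake) had 13.6 ± 2.22, 13.7 ± 1.70 and 7.18 ± 1.25 CPM and was 1.92-fold lower with EGCG than in aged control (edgeR adjusted p = 2.31e-05). Prkab1 had 47.6 ± 0.142, 19.7 ± 2.02 and 30.1 ± 1.52 CPM and was 1.53-fold higher with EGCG than in aged control (edgeR adjusted p = 4.73e-06).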

How the data were processed

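RNA sequencing gave 9 libraries. Per the labels' protocols, libraries were made with a SMARTER mRNA-Seq kit, and GRCm38 (mm10) is the build named in the submitters' processing notes. Which aligner, counter, annotation and strand setting were used was not given in the sources used here. Raw read counts by gene symbol were deposited, without normalization by the authors, beside FPKM values that the authors deposited for the same symbols, in which each count is divided by a gene length and the total of its library.

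Counts were tested with the quasi-likelihood test of edgeR 4.0.16 (R 4.3.3) with TMM factors, after filterByExpr, in 1 fit of 3 group means over all 9 libraries, with two-sided p-values adjusted by the Benjamini-Hochberg method over 13711 genes and a threshold of 0.05. The biological coefficient of variation was 7.89%. Levels are TMM-scaled CPM, and the standard error is the log2 fold change over the square root of F. Libraries of a group differed by more than sampling noise (median chi-square ratio 2.61 to 4.75), so none was merged as a library deposited more than once, which does not show that they are separate animals. Isoenzyme shares use deposited FPKM and exact permutation tests. Alternatives used DESeq2 1.42.0, and limma 3.58.1 on log2(FPKM + 1) or log2(FPKM + 0.1) for genes with a mean of at least 0.5 FPKM. These fold changes are on the scale of the value plus the pseudocount, which understates changes of low genes. In counts simulated for EGCG against aged control over 13711 genes, edgeR recovered 76% of 1.5-fold and 94% of 2-fold rises. It recovered 58% of falls to 0.67 and 72% of falls to 0.5, and 5.06% of calls were false. The simulation changed few genes, as many up as down. In the libraries 24.1% of genes were called and the split depended on the scaling, so these rates need not hold for them.

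All members are named. Other genes are up to 3 called genes of each pathway list with the smallest p in the first 2 comparisons, and the top markers, of which 1 is not reported here. The members and lists were chosen with earlier results of these data known. The choice of which called genes of the pathway lists to describe was made after their values were seen, as was that of the markers named beside the top ones. Hif1a, Epas1 and Arnt were named beside these genes, also after their values were seen.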

Additional observations from a re-analysis of the deposited data

How the results depend on the processing

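Counts of genes and of members called stayed within 1.5 times the main count in each comparison under every alternative run, namely library size scaling, lens fibre scaling, removal of the length trend, DESeq2, limma on FPKM, no filter, 2 groups in the fit, the replicate block and leaving out each library. So did the numbers of members called higher and of members called lower, but the split over all genes did not. Over all genes, EGCG against aged control gave 1894 higher and 1406 lower, but 3086 higher and 611 lower with library size scaling, 4325 higher and 455 lower with lens fibre scaling and 2381 higher and 509 lower with limma on log2(FPKM + 1). Age gave 4847 higher and 4635 lower, but 2939 higher and 6442 lower with library size scaling. Members whose log2 fold change took the opposite sign were mostly not called. With library size scaling, these values were Pdha1 -0.28 with age, Pfkp 0.043, Gapdh 0.084, Pgk1 0.095, Ldha 0.13, Pdk3 0.0051, Pdha1 0.030 and Pgm1 0.12 with EGCG against aged control and Eno1 -0.19, Pkm -0.15, Ldhb -0.077 and Slc16a3 -0.0048 with EGCG against young control. With lens fibre scaling, these values were Pdha1 -0.13 with age and Pfkp 0.11, Gapdh 0.15, Pgk1 0.16, Ldha 0.19, Bsg 0.047, Pdk1 0.048, Pdk2 0.029, Pdk3 0.066, Pdha1 0.094 and Pgm1 0.18 with EGCG against aged control. With the length trend removed, these values were Tpi1 -0.025, Ldha 0.088 and Pdha1 -0.13 with age and Gapdh -0.0056, Eno1 -0.28, Ldha 0.070 and Ldhb -0.27 with EGCG against young control. With DESeq2, these values were Pdha1 -0.0073 with age and Eno1 -0.049 and Pkm -0.011 with EGCG against young control. With limma on log2(FPKM + 1), these values were Pdha1 -0.27 with age, Pfkp 0.041, Gapdh 0.10, Pgk1 0.095, Ldha 0.12, Pdha1 0.020 and Pgm1 0.12 with EGCG against aged control and Eno1 -0.19, Pkm -0.15, Ldhb -0.073 and Slc16a3 -0.0078 with EGCG against young control. With a pseudocount of 0.1 instead, these values were Pdha1 -0.28 with age, Pfkp 0.043, Gapdh 0.10, Pgk1 0.095, Ldha 0.13, Pdha1 0.021 and Pgm1 0.12 with EGCG against aged control and Eno1 -0.19, Pkm -0.16, Ldhb -0.074 and Slc16a3 -0.0089 with EGCG against young control. With only the 2 groups compared in the fit, this value was Pdha1 -0.0055 with age. Leaving out 1 library in turn gave log2 fold changes that crossed 0 and ran, with age Aldoa -0.029 to 0.012 and Pdha1 -0.036 to 0.088, with EGCG against aged control Gapdh -0.19 to 0.13, Ldha -0.037 to 0.025, Pdk3 -0.25 to 0.012, Pdk4 -0.28 to 0.27, Pdha1 -0.17 to 0.020 and Pgm1 -0.042 to 0.044 and with EGCG against young control Eno1 -0.019 to 0.027 and Pdha1 -0.13 to 0.058. The cause of these changes was not tested.

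Replicate numbers did not pair the libraries: same-numbered libraries of different groups had correlations of their deviations from -0.0054 to 0.036, and 0 of 9 pairs exceeded 0.1. For 3 of the 9 libraries, the best-correlated library of another group had the same number. With the replicate number as a replicate block, 4831 higher and 4620 lower genes were called with age, 1905 higher and 1433 lower with EGCG against aged control and 4406 higher and 4288 lower with EGCG against young control. Members split as 11 and 17, 14 and 5, and 12 and 14, where Pdk4 was the 1 member whose call changed.

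Depth limits Pdk4 and Slc16a8, whose lowest libraries hold 4 and 7 counts, and 3 libraries a group limit the shares of isoenzymes to an exact p of 0.1 or more. Each table holds 1 value per gene and library, so the cells a transcript came from were not measured.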
